A study of Mus musculus with 6 samples.

Results

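The transcripts of 9 genes whose products phosphorylate clock proteins or control their ubiquitination were compared in dorsal skin of 3 Bmal1-/- mice and 3 Bmal1+/- littermates. The 9 genes are the casein kinases *Csnk1d*, *Csnk1e*, *Csnk1a1* and *Csnk2a1*, the kinase *Gsk3b*, the F-box proteins *Fbxl21*, *Btrc* and *Fbxw11*, and the deubiquitinase *Usp2*. They were taken by name, out of the 19938 genes with at least 1 probe set to themselves in the annotation of the Affymetrix Mouse Gene 1.0 ST array, and all 9 were measured. Each mouse was hybridized to an array of its own. The mice were on a C57BL/6J background and lacked *Bmal1* in every tissue, not in skin alone, or carried a single mutant copy, so that no wild-type skin stands in the comparison. All 6 samples were staged by histology as telogen, when hair follicles rest, at postnatal day 22, although another label gives day 23 for Bmal1+/- replicate 1. That mouse was male and the other 5 were female. The labels do not give the time of day of collection, and each mouse supplies a single moment of the daily cycle.

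Clock proteins are timed by modification and removal as well as by transcription. Casein kinase 1 enzymes phosphorylate the period proteins PER1 and PER2, and the F-box proteins βTrCP1 and βTrCP2, encoded by *Btrc* and *Fbxw11*, bind the phosphorylated proteins and bring them to an SCF ubiquitin ligase for degradation by the proteasome. FBXL21 acts in the same way on the cryptochromes. Casein kinase 2 and GSK3β phosphorylate several clock proteins, BMAL1 among them, and USP2 removes ubiquitin from clock proteins and is known as a rhythmic transcript in several tissues. The pace of the clock depends on the balance of these activities, which mRNA levels alone do not measure.

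CLOCK/BMAL1 binds E-boxes, PAR bZIP factors bind D-boxes, and REV-ERB and ROR receptors bind RREs. The window from 250 bases before to 50 bases after a transcription start (RefSeq, build GRCm38.p6) was searched on both strands for the E-box CACGTG, the E′-box CACGTT, the D-boxes TTATGTAA and TTATGCAA and the RRE. Of the 9 genes, 6 matched an entry of this table, with 9 windows in all, and none of the 4 kinds of element was found in any of them. Among all 32851 windows, 7.15% held the E-box, 4.68% the E′-box, 1.66% a D-box and 0.384% the RRE, and 13.3% held at least 1 of these. Clock factors had 13 windows from 9 genes, and 6 of these genes held at least 1 element. This counts genes, which can have several windows, whereas the shares above count windows. The 250 bases before the start are shown for *Usp2* (chr9:44084670-44084919, plus strand) and *Gsk3b* (chr16:38088751-38089000, plus strand), as examples without an element, and for *Cry1* (chr10:85185055-85185304, minus strand) and *Per3* (chr4:151044666-151044915, minus strand), whose products are targets of these enzymes. Capitals mark the elements, 5′ to 3′ on the gene's strand.
Usp2: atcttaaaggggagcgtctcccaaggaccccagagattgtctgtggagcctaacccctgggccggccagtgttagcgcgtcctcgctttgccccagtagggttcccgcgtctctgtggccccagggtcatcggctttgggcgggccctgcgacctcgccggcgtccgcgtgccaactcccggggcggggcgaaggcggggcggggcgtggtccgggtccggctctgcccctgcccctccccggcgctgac
Gsk3b: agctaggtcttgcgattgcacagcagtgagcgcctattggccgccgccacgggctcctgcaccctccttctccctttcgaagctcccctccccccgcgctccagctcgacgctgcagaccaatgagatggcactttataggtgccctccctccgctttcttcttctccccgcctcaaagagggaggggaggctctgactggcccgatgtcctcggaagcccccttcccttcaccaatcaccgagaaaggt
Cry1: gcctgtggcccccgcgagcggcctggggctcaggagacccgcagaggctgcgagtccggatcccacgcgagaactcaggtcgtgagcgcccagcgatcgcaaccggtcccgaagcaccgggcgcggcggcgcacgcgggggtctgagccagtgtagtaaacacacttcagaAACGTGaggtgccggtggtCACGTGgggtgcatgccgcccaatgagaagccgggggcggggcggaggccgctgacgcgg
Per3: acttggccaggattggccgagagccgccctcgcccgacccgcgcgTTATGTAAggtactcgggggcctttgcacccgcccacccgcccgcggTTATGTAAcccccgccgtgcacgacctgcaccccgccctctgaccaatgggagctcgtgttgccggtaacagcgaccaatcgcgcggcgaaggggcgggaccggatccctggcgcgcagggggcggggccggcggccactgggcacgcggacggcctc
The E′-box of *Cry1* starts at −79 and its E-box at −60, counted from the transcription start, and both D-boxes of *Per3*, at −205 and −158, read TTATGTAA. The 9 windows of the 6 genes were rich in G and C, with a median of 69.2% (54.0% to 80.8%) over the 250 bases before the start, against a median of 52.4% over all windows. A match describes these letters and is not a binding site, and a window of this size leaves out distant elements and other promoters of the same gene.

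Values are linear intensities of probe sets. Differences are Bmal1-/- minus Bmal1+/- on the scale log2(intensity + 16), tested with limma over all 23410 probe sets that the annotation pairs with a gene, and a probe set was called at a Benjamini-Hochberg adjusted p under 0.05. The median intensity was 219 to 236 on the 6 arrays. The keratinocyte markers (*Krt5*, *Krt14*, *Krt1*, *Krt10*, *Lor* and *Krt15*) summed to 51190 to 56590 in Bmal1+/- and 48185 to 54246 in Bmal1-/- skin, and the fibroblast markers to 67071 to 74248 and 61786 to 69150 for the sum of 6. Markers of striated muscle were also bright, at 68693 to 88433 and 72119 to 81532 for the sum of 8. No marker gene of the 8 cell type lists was called. Those of melanocytes stood apart most, with 4 of 5 markers not overlapping between the genotypes, against 14.7% of all probe sets, and sums of 1456 to 1892 and 1040 to 1224. In whole skin, fewer cells of a type and less RNA per cell cannot be told apart.

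None of the 9 genes was called. With limma, 0 were lower and 0 were higher in Bmal1-/- than in Bmal1+/- skin, the lowest adjusted p being 0.65, where the share of all probe sets was 0.132% for lower, 0.0982% for higher and 0.231% for either. None was at an unadjusted p under 0.05 either, against 8.77% of all probe sets, and a Cyber-T type test also called 0. The ranges of the 2 genotypes overlapped for all 9, whereas 14.7% of all probe sets had ranges that did not. The log2 fold changes ran from −0.26 for *Usp2* to 0.019 for *Csnk2a1*, with a median of −0.022 against 0.014 over all probe sets. On that log2 scale the mean was lower in Bmal1-/- skin for 7 of the 9 and higher for 2. In a two-sided exact permutation test of each gene the p was 0.4 to 1.0, where 0.1 is the smallest that 3 mice against 3 allow.

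**Figure D1:**
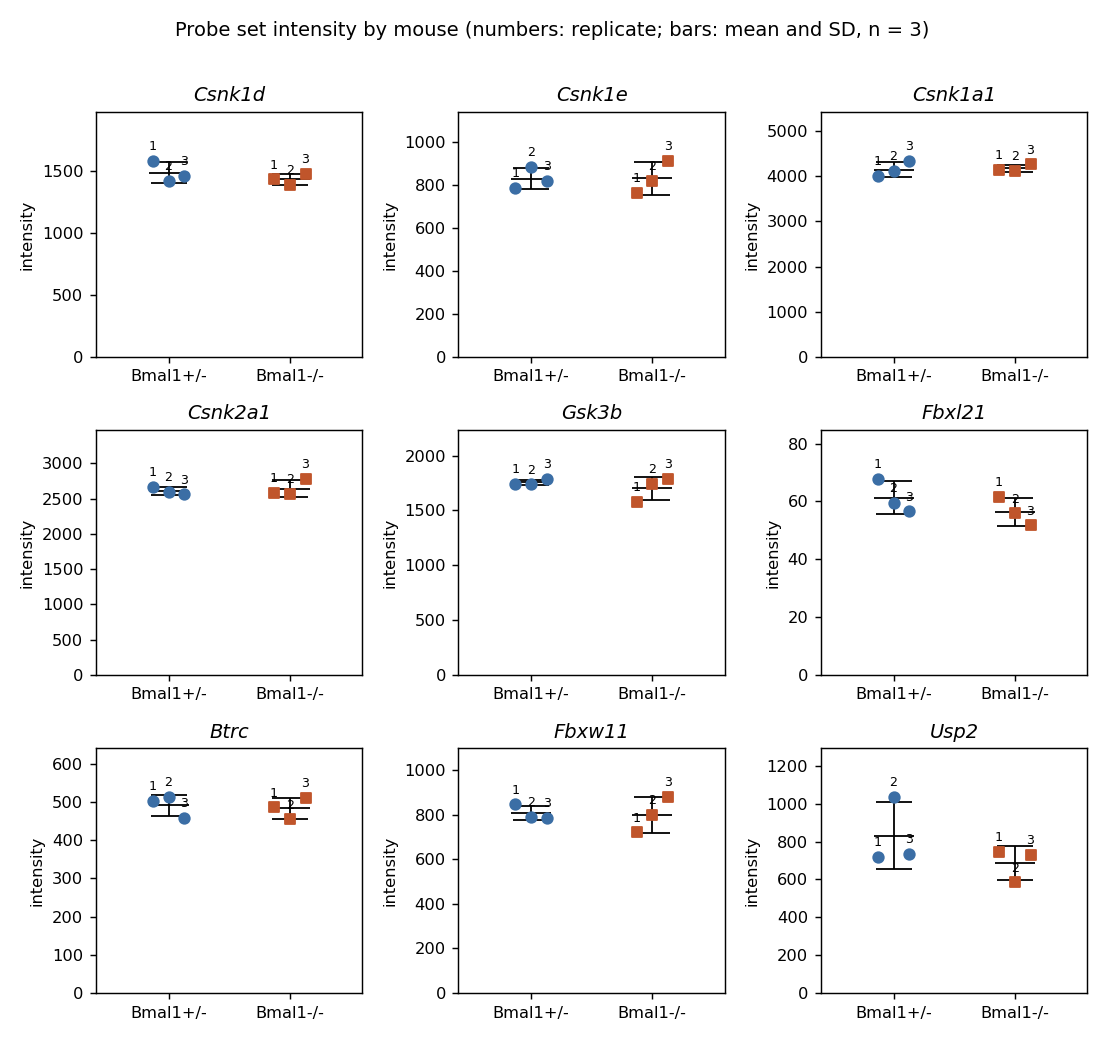
Deposited probe set intensity (vertical axis, linear and starting at 0) of each of the 9 genes in each mouse, with Bmal1+/- mice as circles and Bmal1-/- mice as squares, numbered by replicate. Horizontal and vertical lines give the mean and SD (n = 3). In all 9 panels the ranges overlap, and *Usp2* has the widest spread, from 585 to 1034.

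The 3 casein kinase 1 genes overlapped between the genotypes, and the replicates of *Csnk1d* and *Csnk1a1* lay closer together than those of *Csnk1e*. *Csnk1d* (probe set 10394040) encodes casein kinase 1δ, a main kinase of the period proteins, and had 1579, 1419 and 1463 in Bmal1+/- and 1432, 1389 and 1475 in Bmal1-/- skin. Its log2 fold change was −0.053 (SE 0.061, adjusted p = 0.84 from limma). One Bmal1-/- mouse lay just below the Bmal1+/- range and the other 2 lay within it. *Csnk1e* (probe set 10430519) encodes the closely related casein kinase 1ε, in which the tau mutation shortens the circadian period of the hamster. It had 787, 885 and 820.3 in Bmal1+/- and 762, 820.4 and 912 in Bmal1-/- skin. The lowest and the highest of the 6 values were both from Bmal1-/- mice, and the means, 831 ± 49.5 and 832 ± 75.6 (SD, n = 3 each), differed by far less than the SD, and the log2 difference was −0.00067 (SE 0.079, adjusted p = 0.998). *Csnk1a1* (probe set 10456120), which encodes casein kinase 1α, a kinase of the period proteins and of β-catenin, had 4007, 4113 and 4338 in Bmal1+/- and 4147, 4119 and 4266 in Bmal1-/- skin. All 3 Bmal1-/- values lay within the Bmal1+/- range, and the log2 fold change was 0.0094 (SE 0.053, adjusted p = 0.97).

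*Csnk2a1* encodes a catalytic subunit of casein kinase 2, which phosphorylates BMAL1 and PER2. Its brighter probe set (10350819) had 2662, 2595 and 2558 in Bmal1+/- and 2580.35, 2566 and 2774 in Bmal1-/- skin, a log2 difference of 0.019 ± 0.055 (SE) at an adjusted p of 0.95 from limma. Its other probe set (10477073) had 2399, 2356 and 2338 in Bmal1+/- and 2333, 2333 and 2508 in Bmal1-/- skin, a log2 fold change of 0.016. On both, Bmal1-/- replicate 3 was the highest of the 6 mice. The annotation pairs both probe sets with the same transcripts, and the RefSeq table also lists the pseudogenes *Csnk2a1-ps* and *Csnk2a1-ps1*, so that signal from a near-identical copy could not be separated. *Gsk3b* (probe set 10435676), the kinase of β-catenin that also phosphorylates CRY2 and REV-ERBα, had 1746, 1737 and 1785 in Bmal1+/- and 1581, 1740.3 and 1785 in Bmal1-/- skin. A single mouse, Bmal1-/- replicate 1, was low, and the log2 fold change was −0.046 (SE 0.061, adjusted p = 0.86).

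The 3 F-box genes, which encode the substrate-binding parts of SCF ligases, also overlapped between the genotypes. *Btrc* (probe set 10463486) had 502, 512 and 459 in Bmal1+/- and 485, 454 and 510.2 in Bmal1-/- skin, a difference in log2 of −0.022 ± 0.075 (SE) at an adjusted p of 0.95 from limma. The lowest value of each genotype lay within 5 units of the other's. Its paralog *Fbxw11* (probe set 10375103) had 846, 791 and 786 in Bmal1+/- and 721, 798 and 879 in Bmal1-/- skin, a log2 difference of −0.019 ± 0.079 (SE) at an adjusted p of 0.96. As for *Csnk1e*, the Bmal1-/- mice held both the lowest and the highest value. *Fbxl21* (probe set 10405576), of the ligase for cryptochromes, was the dimmest of the 9, with 11.5% of all tested probe sets below it. It had 67.7, 59.6 and 56.6 in Bmal1+/- and 61.6, 55.9 and 51.7 in Bmal1-/- skin, a difference in log2 of −0.094 ± 0.11 (SE) at an adjusted p of 0.84. Of its 3 Bmal1-/- values 2 lay below the Bmal1+/- range. No detection call accompanies the values, so that part of this signal may be background, and the offset of 16 makes the fold change of so dim a probe set smaller.

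*Usp2* (probe set 10584634) varied most between mice. It had 720.3, 1034 and 737 in Bmal1+/- and 744, 585 and 729.7 in Bmal1-/- skin. Of the 6 mice 4 lay between 720.3 and 744, Bmal1+/- replicate 2 lay above them and Bmal1-/- replicate 2 below. The means were 831 ± 177 and 686 ± 88.3 (SD, n = 3 each), a log2 difference of −0.26 ± 0.14 (SE) at an adjusted p of 0.65 from limma, the lowest unadjusted p of the 9 genes (0.097, limma). The SD within genotypes on the log2 scale was 0.24, larger than that of 93.5% of all probe sets. For the other 8 genes it was below the median of all probe sets, 0.11. Without Bmal1+/- replicate 2 the log2 fold change of *Usp2* was −0.093 (adjusted p = 0.95 from limma), and without Bmal1-/- replicate 2 it was −0.15 (adjusted p = 0.93). Without the male mouse, Bmal1+/- replicate 1, it was −0.35, and again none of the 9 genes was called.

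Because the number of mice is small, the size of difference that the data leave possible is given by the 95% interval of each change. For the 5 kinases the intervals ran from −12.3% to 13.1% of the Bmal1+/- level, on the offset scale. They were −12.3% to 5.98% for *Csnk1d*, −11.6% to 13.1% for *Csnk1e*, −7.35% to 9.35% for *Csnk1a1*, −6.99% to 10.3% for *Csnk2a1* and −11.9% to 6.50% for *Gsk3b*. Those of *Btrc* and *Fbxw11* were of like width, −12.3% to 10.7% and −12.7% to 11.6%. *Fbxl21* was less closely bounded, at −21.2% to 11.4%, and *Usp2* least, at −32.8% to 4.02%. A missed threshold does not show that the genotypes were equal, and these intervals do not give the smallest difference that 3 mice each could detect.

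**Figure D2:**
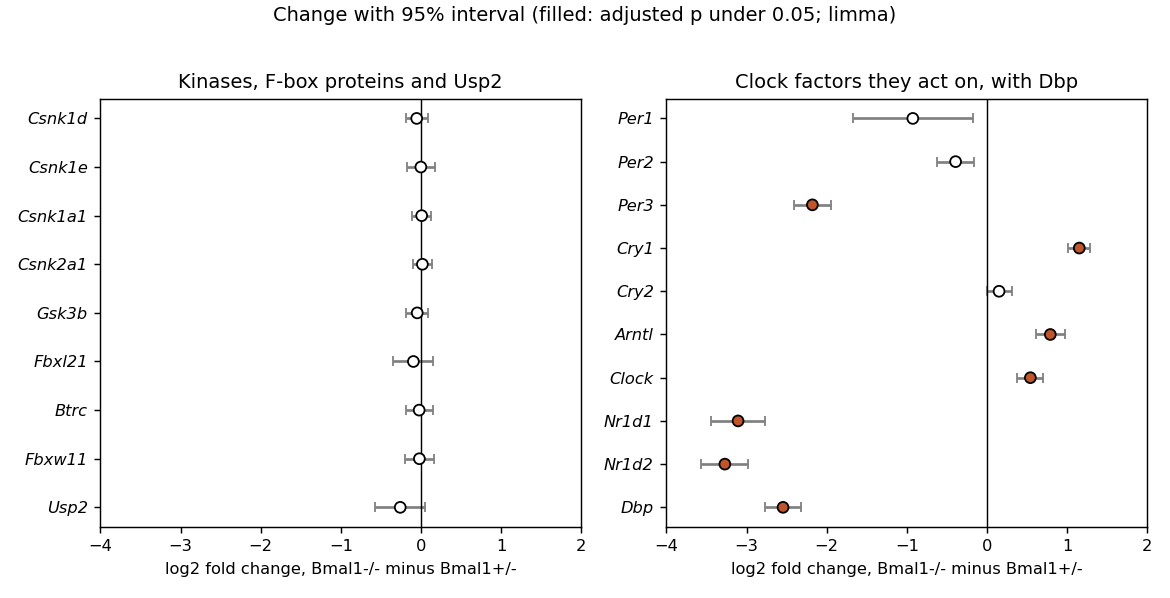
Log2 fold change of each gene with its 95% interval (limma, n = 3 mice each), for the 9 genes on the left and for 10 clock factors, most of them targets of these enzymes, on the right, on the same horizontal scale. Filled points were called. The 9 points on the left lie between −0.26 and 0.019, while those on the right run from −3.27 to 1.15.

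The mice that were high and low for *Usp2* were the same for several other genes. Of the 19937 other genes, the 5 with the highest Pearson correlation with *Usp2* over the 6 mice were *Jph2*, *Kin*, *Synm*, *Sipa1l1* and *Bap1*, with the lowest r of these at 0.985 on log2(intensity + 16). They were picked as the top of that ranking over 6 points, so they describe these mice only. *Jph2*, a junctophilin that holds membranes together in striated muscle, had 1012, 1523 and 1066 in Bmal1+/- and 1094, 878 and 1101 in Bmal1-/- skin. *Synm*, the intermediate filament protein synemin of muscle, had 782, 1103 and 839 in Bmal1+/- and 777, 633 and 787 in Bmal1-/- skin. As for *Usp2*, Bmal1+/- replicate 2 was highest and Bmal1-/- replicate 2 lowest for both. *Kin* encodes a nuclear zinc finger protein, *Sipa1l1* a GTPase-activating protein and *Bap1* another deubiquitinase, and these 3 varied less, by 1.26, 1.09 and 1.18 times between the lowest and the highest mouse against 1.77 times for *Usp2*. The 8 striated muscle markers summed to 68693, 88433 and 76444 in Bmal1+/- and to 76690, 72119 and 81532 in Bmal1-/- skin. Their sum was thus highest in the same mouse as *Usp2*, but lowest in Bmal1+/- replicate 1, where *Usp2* was 720.3. The part of muscle content in the spread of *Usp2* was not tested.

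**Figure D3:**
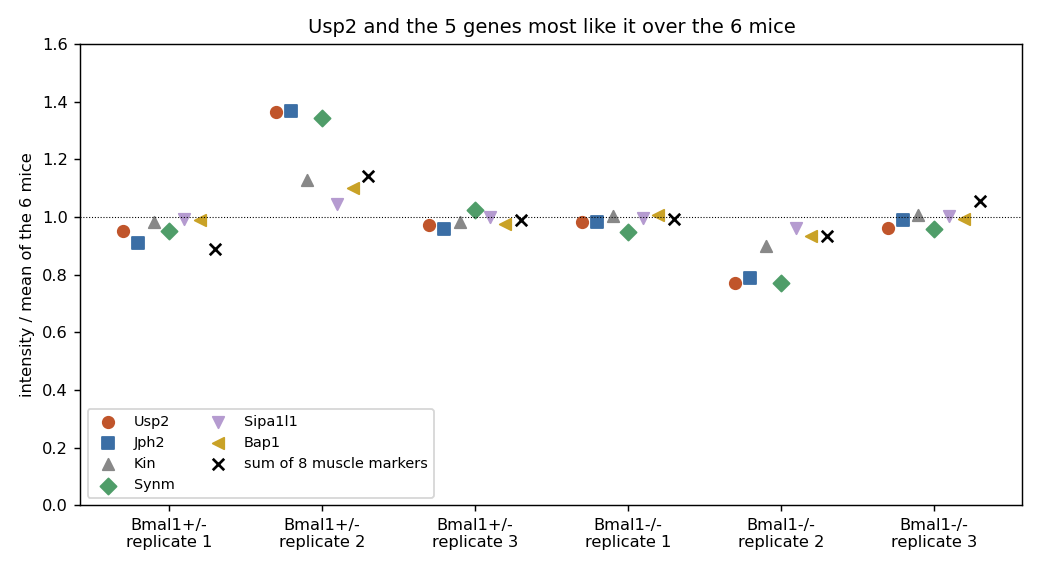
Intensity in each of the 6 mice, divided by the mean over the 6 mice (vertical axis), of *Usp2*, of the 5 genes most correlated with it and of the summed intensity of 8 striated muscle markers (crosses). *Usp2*, *Jph2* and *Synm* are highest in Bmal1+/- replicate 2, at 1034, 1523 and 1103, and lowest in Bmal1-/- replicate 2, at 585, 878 and 633.

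The wider machinery around these enzymes was described by 3 lists, of which 39 of 45 genes were measured. No gene of them was called and 2 were at an unadjusted p under 0.05 (limma), with a single gene whose ranges did not overlap, against 8.77% and 14.7% of all probe sets. Among 18 other kinases and phosphatases the median log2 fold change was 0.0034, and the lowest p were those of *Mapk14*, the stress kinase p38α, and *Prkca*, protein kinase Cα. *Mapk14* had 1298, 1385 and 1237 in Bmal1+/- and 1455, 1395 and 1487 in Bmal1-/- skin, a difference in log2 of 0.14 ± 0.062 (SE) at an adjusted p of 0.56, without overlap. *Prkca* had a log2 fold change of −0.13 (adjusted p = 0.69 from limma). Among 16 other ligases and cullin-RING subunits the median was 0.00072. The lowest p were those of *Dtl*, the substrate receptor of a cullin 4 ligase that acts in DNA replication, with −0.34 (SE 0.15, adjusted p = 0.56), and of *Skp1*, the adaptor that links F-box proteins to cullin 1, with −0.14 (SE 0.076, adjusted p = 0.64). The ranges of both overlapped. The scaffold *Cul1* had a log2 fold change of −0.047 (adjusted p = 0.85). The 5 other deubiquitinases lay between −0.023 for *Usp14* and 0.021 for *Usp7*, a deubiquitinase of cryptochromes, with a median of −0.0014.

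In the families to which 7 of the 9 genes belong by name, none passed the test. The 8 casein kinase 1 and 2 genes, the 55 *Usp* genes and the 71 *Fbxl*, *Fbxw* and *Fbxo* genes measured, taken by the start of the symbol, held 0 calls with limma, and also 0 with the Cyber-T type test. At an unadjusted p under 0.05 there were 0, 2 and 3, or 3.73% of the 134 genes, against 8.77% of all probe sets. The symbols include the opposite-strand transcripts *Usp46os2* and *Fbxl12os* and the gene *Usp6nl*, which are not family members, and without these 3 the share was 3.82% of 131 genes with 0 calls. The medians were 0.0033, −0.028 and 0.020. In the casein kinase family *Csnk1g1* had the lowest p, with a log2 fold change of −0.077 (adjusted p = 0.83), and *Csnk1d* was next. Among *Usp* genes, *Usp44*, which acts on the spindle checkpoint, had 48.4, 51.8 and 50.2 in Bmal1+/- and 29.9, 36.6 and 41.2 in Bmal1-/- skin, a log2 difference of −0.36 ± 0.12 (SE) at an adjusted p of 0.42. *Usp44* was dimmer than *Fbxl21*, with 7.01% of all tested probe sets below it, so that part of its signal may also be background. *Usp31* had a difference in log2 of 0.16 ± 0.062 (SE) at an adjusted p of 0.50. Among F-box genes, *Fbxo3* had 1870, 1909 and 1868 in Bmal1+/- and 1498, 1625 and 1746 in Bmal1-/- skin, a log2 difference of −0.21 ± 0.065 (SE) at an adjusted p of 0.37. *Fbxo7*, known from inherited parkinsonism, had a difference in log2 of −0.16 ± 0.062 (SE) at an adjusted p of 0.50. The genotypes did not overlap for these 4 genes, which were picked for the lowest p of the *Usp* and F-box families. They are not the only ones, since *Usp29* and *Fbxo25*, for example, did not overlap either. Of all probe sets 14.7% had ranges that did not overlap, and no gene of these families passed the test.

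**Figure D4:**
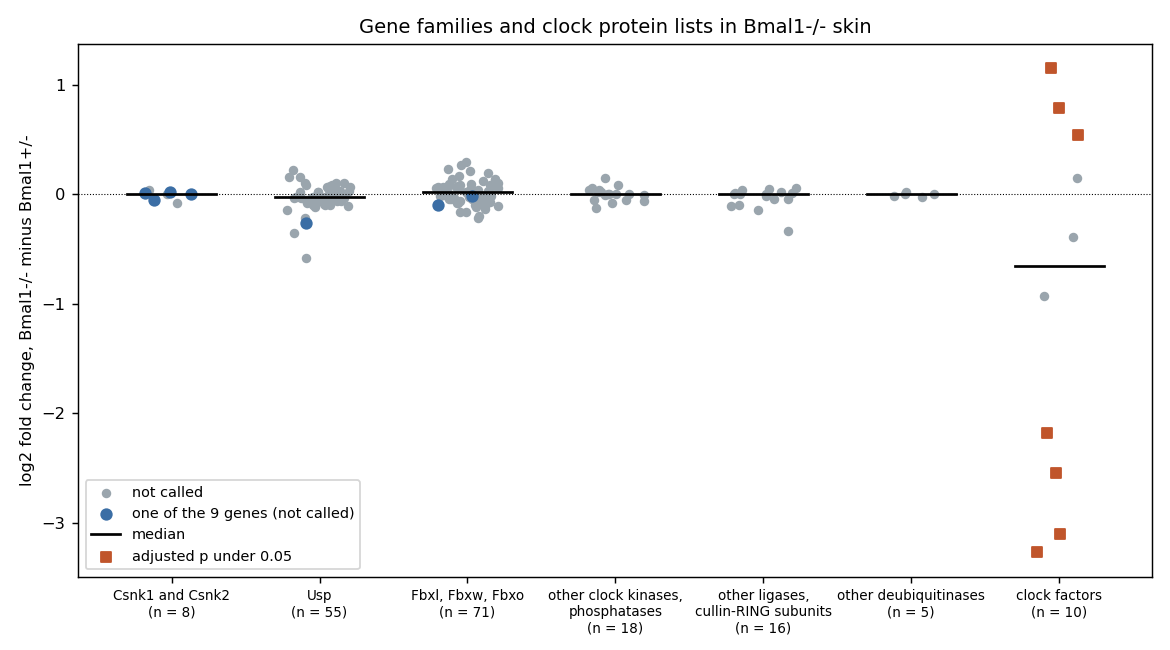
Log2 fold change (vertical axis) of every measured gene of 3 gene families, of 3 lists of related enzymes and of the clock factors, with the median of each as a line. The large circles are 7 of the 9 genes, since *Gsk3b* and *Btrc* belong to none of the families by name, and the squares are called genes. The families and enzyme lists lie between −0.58 and 0.30 with no call, and all 7 called genes are clock factors.

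Many clock factors did change. Of 10 such genes, most of whose products are modified by these enzymes, 4 were lower (*Per3*, *Nr1d1*, *Nr1d2* and *Dbp*) and 3 were higher (*Cry1*, *Arntl* and *Clock*) in Bmal1-/- skin, and 9 of 10 had ranges that did not overlap, against 14.7% of all probe sets. *Clock* was the least firm of the 7. Its log2 fold change of 0.54 (adjusted p = 0.018 from limma) lost its call in 7 of 18 alternative fits, with an adjusted p of up to 0.108. These were the replicate block, all rows, no variance trend and the fits without Bmal1+/- replicate 2 or 3 or Bmal1-/- replicate 2 or 3. The changes of the clock factors were known from earlier results of the same arrays and are given only to set the enzymes beside their targets. *Arntl* is *Bmal1* itself. The sources used here do not say whether its probes lie in the deleted part, so that its level does not check the genotype. Within each mouse, the log2 value of the enzyme's transcript was subtracted from that of its substrate, for 14 pairs of a period or cryptochrome gene and a kinase or F-box gene. Each period gene was set against *Csnk1d*, *Csnk1e*, *Btrc* and *Fbxw11*, and each cryptochrome gene against *Fbxl21*. *Csnk1a1*, *Csnk2a1* and *Gsk3b*, whose products also act on period or cryptochrome proteins, were not paired. The pairs share genes and were chosen with the results known, so they are a description without a test. For *Per3* and *Csnk1e* this difference was −0.15, −0.14 and −0.24 in Bmal1+/- and −2.26, −2.49 and −2.30 in Bmal1-/- skin. For *Cry1* and *Fbxl21* it was 2.52, 2.65 and 2.66 in Bmal1+/- and 3.78, 3.81 and 3.96 in Bmal1-/- skin. For the first pair the genotypes were thus apart by −2.18, where *Per3* alone changed by −2.18. *Cry1* alone changed by 1.15, and no size is given for the second pair, since part of the signal of *Fbxl21* may be background. For *Per2* and *Btrc* it was −0.16, −0.055 and −0.19 in Bmal1+/- and −0.36, −0.57 and −0.58 in Bmal1-/- skin, a shift of −0.37. *Per2* alone changed by −0.39 and was not called (adjusted p = 0.26 from limma). The ranges did not overlap for 7 of the 14 pairs, namely all 4 of *Per3*, *Per2* with *Csnk1d* and with *Btrc*, and *Cry1* with *Fbxl21*, which carries the same limit. No share over other pairs of genes was taken for this count. Because the enzymes differed little, it mostly repeats the changes of *Per3*, *Per2* and *Cry1* themselves, and the 4 *Per3* pairs are not separate results. The ranges of the 4 *Per1* pairs overlapped, and for *Per1* itself Bmal1-/- replicate 1, at 846, lay within the Bmal1+/- range of 665 to 993.

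The changes of the 9 genes were small enough that their sign was often not fixed by the data. Of the 9 genes, 3 (*Csnk1d*, *Fbxl21* and *Usp2*) kept a lower mean in Bmal1-/- skin under every alternative setting that was run. The other 6 changed sign at least once.

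**Figure D5:**
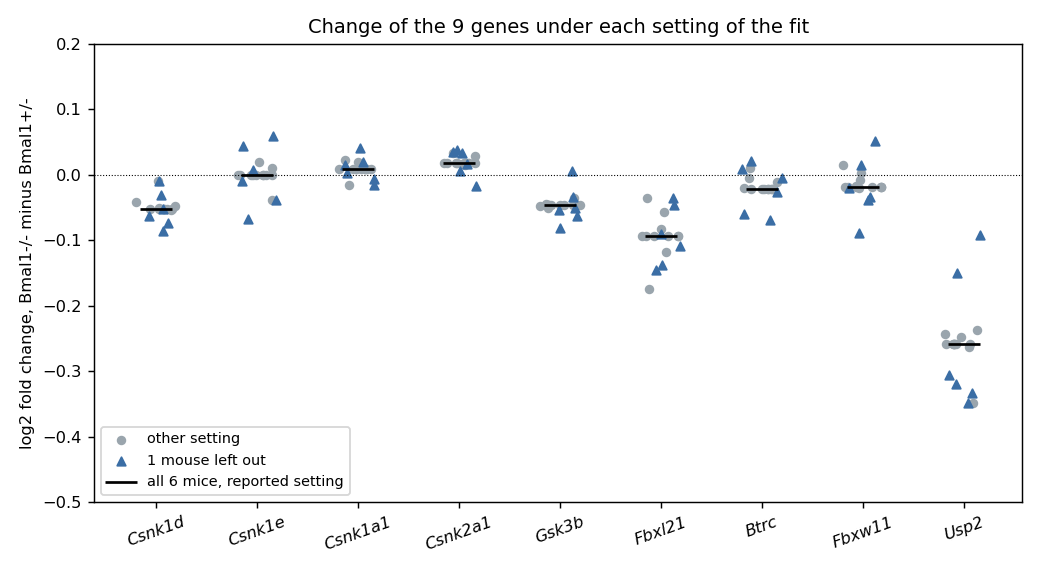
Log2 fold change (vertical axis) of each of the 9 genes as reported (line), with 1 mouse left out (triangles) and under the other settings (circles). *Usp2* runs from −0.35 to −0.093, the 2 values nearest 0 coming from fits without 1 mouse, and the other 8 genes stay between −0.17 and 0.059.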

How the data were processed

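Dorsal skin RNA of 3 Bmal1-/- and 3 Bmal1+/- mice was measured on 6 arrays, grouped by the sample labels. The authors deposited linear intensity values, and the labels name PLIER 2.0 and Affymetrix Expression Console 1.1. The sources used here do not give the background correction, the normalization between arrays or the genome build. Of 35557 rows, 21789 pair with 1 gene, 1621 with several, which name none, and 12147 with none. Without further normalization, log2(intensity + 16) was fitted with limma 3.58.1 in R 4.3.3 (eBayes with an intensity trend), two-sided, Benjamini-Hochberg adjusted over 23410 probe sets. Intervals are 95% intervals of that fit. Where several probe sets measured a gene, the brightest stood for it. The procedure was tested on simulated data. Figures were drawn with Python 3.11.15 and matplotlib 3.10.9.

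The genes, lists and alternatives were chosen with earlier results of these data known. Named besides the 9 genes are, of each list and family, the called genes or otherwise the 2 with the lowest p, and the 5 genes most correlated with the member of lowest p; *Cul1*, *Usp7* and *Usp14* were added after their values were seen. Alternatives changed the offset, normalization, probe sets, variance model, test, threshold, replicate block, sex term or left out 1 mouse. Same-numbered mice had deviations that correlated at 0.078, −0.35 and 0.056, and differently numbered mice at −0.26 to 0.26. Deviations from a mean of 3 mice are not independent, so these values cannot settle whether the numbers pair littermates. The reported fit did not pair the mice. The number of arrays limits the precision.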

Additional observations from a re-analysis of the deposited data

How the results depend on the processing

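None of the 9 genes was called under any of the 18 alternative fits or at an unadjusted p under 0.001, and the lowest adjusted p was 0.36, for *Usp2* without Bmal1+/- replicate 3. Of 162 alternative values, 17 turned the sign of a difference that had not passed the test. With quantile normalization these were 0.019 for *Csnk1e*, 0.0097 for *Btrc* and 0.0022 for *Fbxw11*, and with equal array medians 0.010 for *Csnk1e*. With a sex term they were −0.016 for *Csnk1a1* and 0.014 for *Fbxw11*. Bmal1+/- replicate 1 was the only male, so the fit without that mouse gave the same log2 fold changes and is not a separate check. Sex cannot be told apart from that mouse. With 1 mouse left out, the log2 fold change ran from −0.068 to 0.059 for *Csnk1e*, −0.016 to 0.041 for *Csnk1a1*, −0.017 to 0.038 for *Csnk2a1*, −0.081 to 0.0056 for *Gsk3b*, −0.068 to 0.021 for *Btrc* and −0.088 to 0.052 for *Fbxw11*. The cause was not tested.

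Over all probe sets, against 31 lower and 23 higher, testing all rows gave 19 and 15, a fit without the variance trend 16 and 11, the Cyber-T type test 177 and 96, and an unadjusted p under 0.001 gave 93 and 59. Leaving out 1 mouse gave 22 to 34 lower and 13 to 23 higher. The counts of the enzyme lists and families were 0 in each setting, and of the clock factors 4 to 5 were lower, *Per1* being the fifth with the Cyber-T type test and without Bmal1-/- replicate 1, and 2 to 3 higher, *Clock* being the one lost. Without Bmal1-/- replicate 3 the median of the 9 genes was −0.068, and that of the F-box family turned to −0.011. With the replicate block, 34 were lower and 20 higher, and *Usp2* had an adjusted p of 0.75 with the same log2 fold change of −0.26. The dim filter, a mean intensity of 64, left out *Fbxl21*, so that it has no value there.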
